A study of Mus musculus with 12 samples.

Results

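The markers examined were 47 genes that are commonly used to recognise the tissue around the cortex and its vessels and blood. They were taken from a fixed list of names and comprised 12 genes of the meninges, 8 of endothelium, 5 of pericytes, 9 of microglia, 3 of erythroid cells and 10 of the choroid plexus. All 47 were measured, among 14860 genes in all. The question was how much of the signal in mutant and control cortex came with these markers and whether it differed by genotype. The study used the new microarrays to find genes that depend on the transcription factors Tbr1 and Tbr2, and its report dealt with epigenetic factors.

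RNA came from dissected mouse neocortex at E14.5, with 1 embryo on each array, on Affymetrix Mouse Exon 1.0 ST arrays. The 4 *Tbr1* KO embryos carried the constitutive *Tbr1* knockout. The 2 *Tbr2* cKO embryos had a conditional deletion of *Tbr2* (gene symbol *Eomes*). The 3 *Tbr1/2* dKO embryos combined both losses as Tbr1-/-;Tbr2 2F/2F;Nes11Cre, where the Cre recombinase is driven by a nestin transgene, which is active in neural progenitors. The 3 controls were wild type for *Tbr1* with an intact, non-recombined *Tbr2*. These numbers follow the sample labels, while the design text of the series gives 4 of each genotype. The study treated the cortex of each embryo as a separate replicate. The sources used here do not say whether meninges and choroid plexus were taken off before freezing.

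The developing cortex is covered by the meninges, layers of fibroblasts that make collagen-rich matrix and secrete signals such as retinoic acid. Vessels grow in from this covering and are built of endothelial cells with pericytes on their outer wall, red cells fill them, and microglia arrive from the yolk sac. The choroid plexus is a secretory epithelium that makes cerebrospinal fluid, and it borders the cortex at the cortical hem, a signalling centre on the medial edge. The markers are used to recognise such tissue in a dissected cortex.

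The deposited values are log2 intensities after RMA (a method that corrects background, equalises the arrays and summarises the probes of a gene), and a difference of 1 is a doubling. Array medians lay between 8.15 and 8.25. The targeted genes were low in the arrays named for their loss. *Tbr1* had log2 values of 9.76 to 10.06 in *Tbr1* KO and 9.52 to 9.69 in *Tbr1/2* dKO arrays, against 10.88 to 11.01 in controls. *Eomes* had 9.19 and 8.20 in *Tbr2* cKO and 8.37 to 8.65 in *Tbr1/2* dKO arrays, against 11.70 to 12.13 in controls. Of the 12 arrays, 2 stood apart from others of their genotype in the markers examined here, *Tbr2* cKO replicate 1 and *Tbr1/2* dKO replicate 1. In *Tbr2* cKO replicate 1, 30 of 47 markers lay above all 3 controls, as did 22.9% of all genes, and in *Tbr1/2* dKO replicate 1 it was 32 of 47, beside 25.7% of all genes. The other 7 mutant arrays had 6 to 14 of 47 above all controls, beside 20.9% to 37.1% of all genes. The main results are therefore given with and without these 2 arrays. They were picked for high values of these same markers, so leaving them out lowers most marker differences by construction. Such a fall describes the weight of the 2 arrays and is not a test.

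As a class, meningeal genes were high in the same 2 arrays, and the class means of the other mutant arrays lay near those of controls. Single genes such as *Dcn* and *Lum* departed from this. The mean log2 value of the 12 genes was 8.55 and 7.50 in the *Tbr2* cKO arrays and 8.56, 7.50 and 7.69 in the *Tbr1/2* dKO arrays, against 7.33, 7.53 and 7.65 in controls. The 4 *Tbr1* KO arrays had 7.61, 7.75, 7.62 and 7.65. In *Tbr2* cKO replicate 1 and in *Tbr1/2* dKO replicate 1, 11 of the 12 genes exceeded all controls, *Foxd1* being the exception in both. Of all genes 22.9% and 25.7% did so in these arrays. In bulk tissue, fewer or more cells of a type cannot be told apart from less or more RNA per cell.

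**Figure D1:**
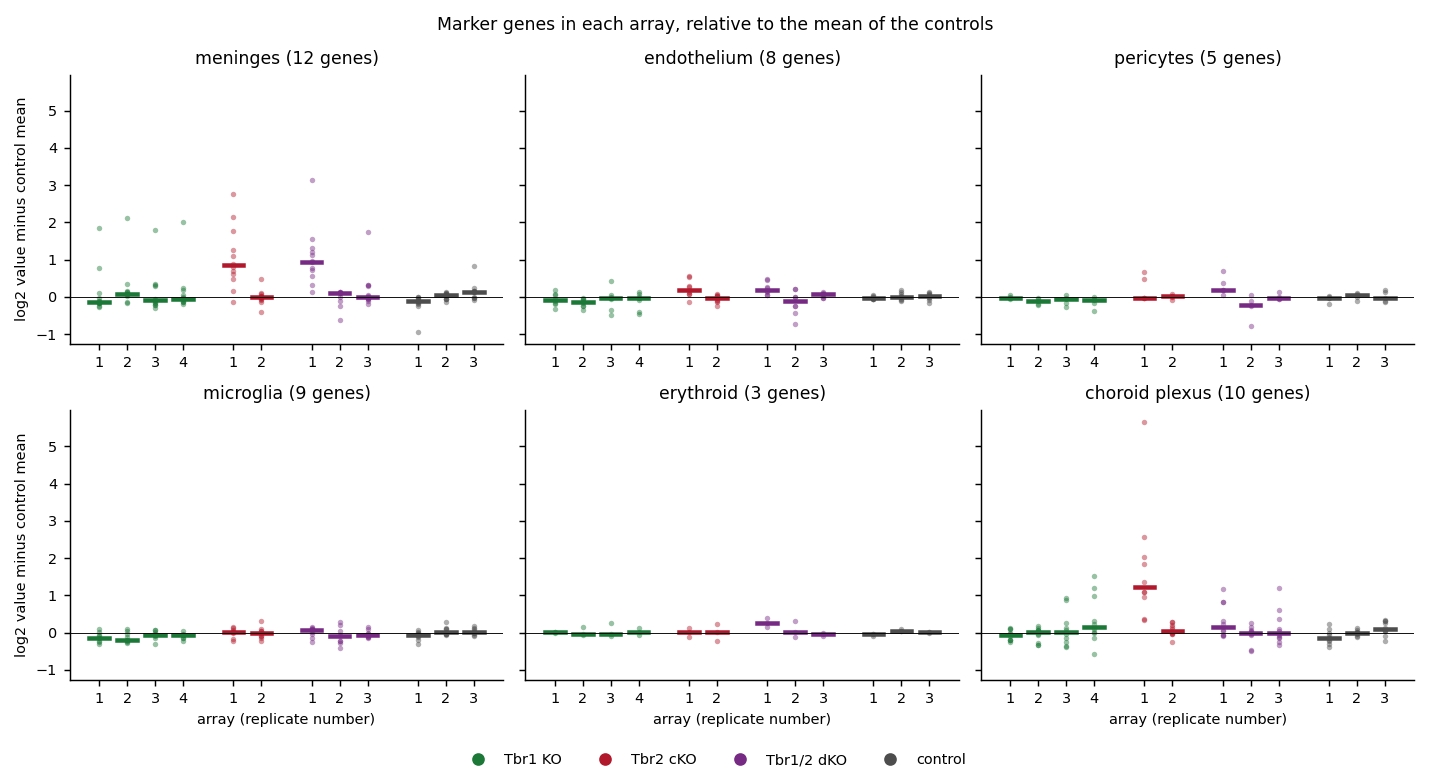
Each point is 1 marker gene in 1 array, as its log2 value minus the mean of the 3 controls, and each bar is the median of the class. The meninges sit high in Tbr2 cKO replicate 1 and Tbr1/2 dKO replicate 1 (medians 0.84 and 0.95), and the choroid plexus in Tbr2 cKO replicate 1 (median 1.23).

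*Dcn* encodes decorin, a small proteoglycan that binds collagen fibrils. It had log2 values of 10.03, 10.28, 9.96 and 10.18 in the *Tbr1* KO arrays, 10.95 and 8.65 in *Tbr2* cKO and 11.31, 7.56 and 9.92 in *Tbr1/2* dKO, against 7.24, 8.28 and 9.002 in controls. All 4 *Tbr1* KO arrays lay above all controls and close together, while the controls and the *Tbr1/2* dKO arrays were widely spread. The *Tbr1* KO difference of 1.94 (SE 0.79), a fold of 3.84, was the largest increase of all 14860 genes in that comparison, and it was not called (adjusted p = 0.673, limma). That fit shares 1 SD over all genotypes, 1.20 for *Dcn*, while the SD was 0.15 within *Tbr1* KO and 0.88 within controls. With these 2 groups fitted alone the adjusted p was 0.0685 (limma). The two-sided exact permutation test of 4 against 3 arrays gave p = 0.0571. This is the smallest it can give, and it must give it where the groups do not overlap. The differences were 1.62 (SE 0.94, adjusted p = 0.638) in *Tbr2* cKO and 1.42 (SE 0.84, adjusted p = 0.571) in *Tbr1/2* dKO. Without the 2 arrays that stood apart these were 0.47 for *Tbr2* cKO and 0.57 for *Tbr1/2* dKO, and *Dcn* in *Tbr1* KO had an adjusted p of 0.351.

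*Lum* encodes lumican, another collagen-binding proteoglycan, and is the direct neighbour of *Dcn* on chromosome 10. Its log2 values were 6.57, 6.17, 6.14 and 6.04 in *Tbr1* KO, 7.97 and 5.41 in *Tbr2* cKO and 7.36, 5.93 and 6.12 in *Tbr1/2* dKO arrays, against 5.78, 5.87 and 5.78 in controls. All *Tbr1* KO and all *Tbr1/2* dKO arrays were above the controls, whereas the *Tbr2* cKO arrays fell on either side of them. The *Tbr1* KO difference was 0.42 (SE 0.50, adjusted p = 0.959).

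*Igf2*, a growth factor secreted by the meninges and the choroid plexus, had 9.60, 9.53, 10.00 and 9.90 in *Tbr1* KO, 10.80 and 9.67 in *Tbr2* cKO and 10.63, 9.82 and 10.00 in *Tbr1/2* dKO arrays, against 9.60, 9.65 and 9.86 in controls. Its highest values fell in the 2 arrays that stood apart, and the rest overlapped the controls or exceeded them by little.

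The remaining meningeal genes varied mostly with the same 2 arrays. *Ogn* (osteoglycin, a matrix proteoglycan), named here after its values were seen, had 7.20 and 5.33 in *Tbr2* cKO and 6.73, 5.17 and 5.47 in *Tbr1/2* dKO arrays, against 5.41, 5.47 and 5.39 in controls. The fibrillar collagen gene *Col3a1* had 7.96 and 7.49 in *Tbr2* cKO and 8.02, 7.59 and 7.44 in *Tbr1/2* dKO arrays, against 7.32, 7.50 and 7.60 in controls. Both genes were thus above all controls in replicate 1 of each genotype. *Aldh1a2*, the retinoic acid synthesising enzyme of the meninges, had 7.17 in *Tbr2* cKO replicate 1 and 7.49 in *Tbr1/2* dKO replicate 1, against 6.21 to 6.38 in controls. The transcription factor genes of the class differed less within the *Tbr2* cKO pair. *Foxd1* had 8.04 in *Tbr2* cKO replicate 1 and 8.29 in replicate 2, against 8.06 to 8.43 in controls, and *Foxc1* had 8.68 and 8.59, against 8.44 to 8.67 in controls.

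The promoters of *Ogn* and *Col3a1* are printed as examples of meningeal genes that were high together in these 2 arrays, from 250 bases before to 50 after the RefSeq start (GRCm38.p6), both on the plus strand. *Ogn* lies at chr13:49607765-49608064 and *Col3a1* at chr1:45311288-45311587. Capitals mark TATAAA, the usual letters of a TATA box, searched on both strands and chosen after the sequences were seen, with overlapping matches run together.
*Ogn*: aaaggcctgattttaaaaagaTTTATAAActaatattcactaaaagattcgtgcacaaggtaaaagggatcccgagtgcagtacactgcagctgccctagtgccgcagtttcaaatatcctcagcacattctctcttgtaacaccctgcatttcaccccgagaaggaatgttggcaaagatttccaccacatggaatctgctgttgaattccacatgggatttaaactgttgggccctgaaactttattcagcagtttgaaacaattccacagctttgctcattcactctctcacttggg
*Col3a1*: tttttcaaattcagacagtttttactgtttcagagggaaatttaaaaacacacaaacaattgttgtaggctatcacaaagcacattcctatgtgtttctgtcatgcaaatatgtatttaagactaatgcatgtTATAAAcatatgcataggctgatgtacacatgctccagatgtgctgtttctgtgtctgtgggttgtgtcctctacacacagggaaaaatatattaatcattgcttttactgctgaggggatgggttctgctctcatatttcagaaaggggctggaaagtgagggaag
A promoter entry was found for 31 of the 47 markers, and 8 of these 31 held TATAAA, as did 13.6% of 32851 RefSeq promoters of this length. By class it was 2 of 9 meningeal, 2 of 4 endothelial, 0 of 4 pericyte, 1 of 7 microglial, 2 of 2 erythroid and 1 of 5 choroid plexus promoters. The match in *Ogn* runs over both strands and lies far upstream of the start, and that in *Col3a1* lies nearer to it but still well upstream. The capitals mark a match of letters only, and whether either works as a TATA box was not tested.

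Choroid plexus genes were high in *Tbr2* cKO replicate 1 and not as a class in any other array. All 10 exceeded all controls there, against 3 of 10 in *Tbr2* cKO replicate 2 and 5 of 10 in *Tbr1/2* dKO replicate 1. Of all genes 22.9%, 20.9% and 25.7% did so in these arrays, in the same order. The mean log2 value of the 10 genes was 6.78, 6.79, 6.95 and 7.20 in *Tbr1* KO, 8.57 and 6.91 in *Tbr2* cKO and 7.17, 6.79 and 6.98 in *Tbr1/2* dKO arrays, against 6.73, 6.84 and 6.96 in controls. The 2 arrays with high meningeal values thus differed in the choroid plexus genes.

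*Ttr* encodes transthyretin, the thyroid hormone carrier that is the best-known product of the choroid plexus. It had log2 values of 6.84, 6.96, 6.78 and 8.45 in *Tbr1* KO, 12.57 and 7.08 in *Tbr2* cKO and 7.76, 6.87 and 6.77 in *Tbr1/2* dKO arrays, against 6.78, 7.01 and 6.99 in controls. A single array carried the difference, with smaller excesses in *Tbr1* KO replicate 4 and *Tbr1/2* dKO replicate 1. The *Tbr2* cKO difference of 2.90 (SE 1.16), a fold of 7.46, was the largest increase of all genes in that comparison and was not called (adjusted p = 0.419, limma). Without the 2 arrays that stood apart it was 0.15.

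*Otx2*, a homeobox gene needed for the choroid plexus that also marks tissue near the cortical hem, had 7.67, 7.22, 8.48 and 8.76 in *Tbr1* KO, 9.42 and 7.85 in *Tbr2* cKO and 8.40, 7.07 and 8.75 in *Tbr1/2* dKO arrays, against 7.18, 7.70 and 7.82 in controls. *Sulf1*, a sulfatase that trims heparan sulfate, had 6.46, 6.38, 7.59 and 7.69 in *Tbr1* KO, 9.28 and 6.69 in *Tbr2* cKO and 7.89, 6.69 and 7.32 in *Tbr1/2* dKO arrays, against 6.50, 6.61 and 7.03 in controls. Both genes were high in *Tbr1* KO replicates 3 and 4, *Tbr2* cKO replicate 1 and *Tbr1/2* dKO replicates 1 and 3. A list of 13 cortical hem genes had its higher means in these arrays, at 7.95, 7.94, 8.59 and 8.66 in *Tbr1* KO, 8.63 and 8.15 in *Tbr2* cKO and 8.48, 7.86 and 8.54 in *Tbr1/2* dKO, against 7.70, 8.05 and 8.53 in controls. Control replicate 3 was as high in the hem list, while its *Otx2* and *Sulf1* were lower than in those mutant arrays. The part of the hem in *Otx2* and *Sulf1* was not tested.

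*Trpm3*, a cation channel gene of the choroid plexus that hosts a microRNA, took another course. It had 7.62, 7.53, 7.42 and 7.23 in *Tbr1* KO, 8.91 and 8.01 in *Tbr2* cKO and 7.74, 7.34 and 7.58 in *Tbr1/2* dKO arrays, against 8.06, 7.79 and 7.60 in controls. Both *Tbr2* cKO arrays were above every *Tbr1* KO array, and *Tbr2* cKO replicate 2 was within the control range. The difference of *Tbr2* cKO from *Tbr1* KO was 1.01 (SE 0.22), with an adjusted p of 0.0849, the lowest of any marker in any comparison. Without the 2 arrays that stood apart it was 0.56.

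Values of the remaining choroid plexus genes are given after these had been seen, and outside the rule for naming genes. *Clic6*, an intracellular chloride channel gene, had 8.30 and 6.26 in *Tbr2* cKO arrays, against 5.98, 6.26 and 6.61 in controls. *Folr1*, a folate receptor gene, had 8.11 and 7.30 in *Tbr2* cKO arrays, against 6.82, 6.91 and 7.33 in controls. In both genes only the first *Tbr2* cKO array exceeded the controls. *Folr1* had the lowest adjusted p of any marker in *Tbr2* cKO against control (0.251, difference 0.69, SE 0.21), with an exact permutation p of 0.4, where 0.2 is the smallest possible. Without the 2 arrays the differences were -0.02 for *Clic6* and 0.29 for *Folr1*. *Sostdc1* (a secreted BMP and WNT antagonist), *Calml4*, *Aqp1* (a water channel) and *F5* (coagulation factor V) exceeded all controls in the same array, at 8.26, 7.23, 7.48 and 6.17.

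**Figure D2:**
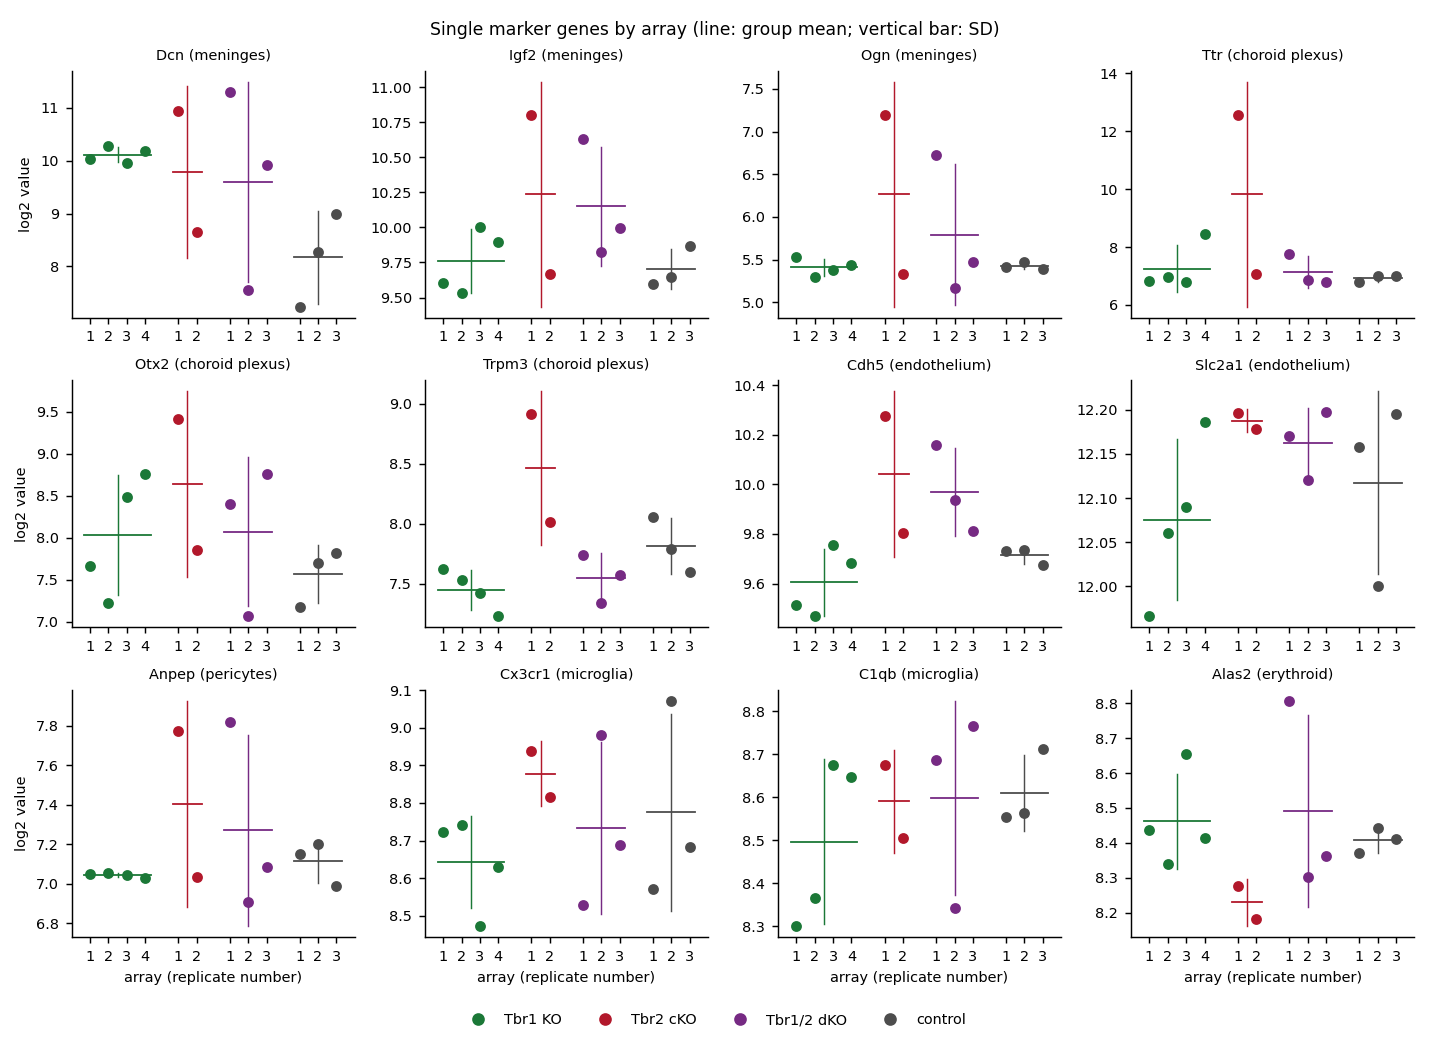
Log2 values of 12 single markers in every array, with the group mean as a horizontal line and the SD as a vertical bar. Dcn is high in all 4 Tbr1 KO arrays (9.96 to 10.28), while Ttr is highest in a single Tbr2 cKO array (12.57).

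**Figure D3:**
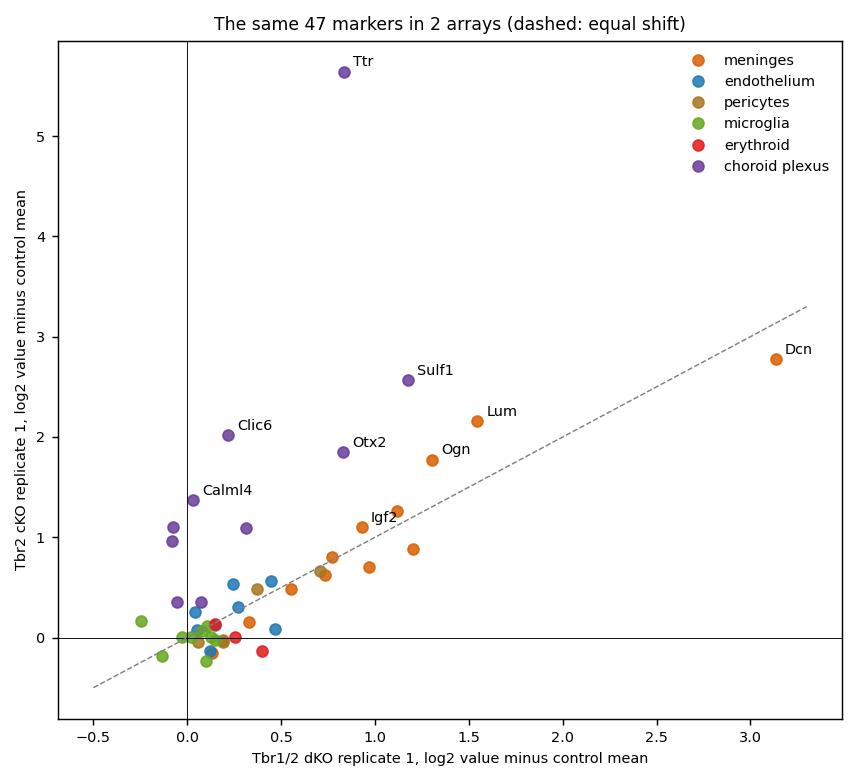
The 47 markers in the 2 arrays that stood apart, each as its log2 value minus the control mean, with Tbr1/2 dKO replicate 1 on the horizontal and Tbr2 cKO replicate 1 on the vertical axis. The meningeal genes lie near the line of equal shift, whereas choroid plexus genes such as Ttr (5.64 in Tbr2 cKO replicate 1) lie above it.

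Vessel genes differed little between genotypes, and the largest shift was in *Cdh5*. The endothelial mean was 9.07, 8.98, 9.07 and 9.03 in *Tbr1* KO, 9.36 and 9.09 in *Tbr2* cKO and 9.36, 8.98 and 9.19 in *Tbr1/2* dKO arrays, against 9.11, 9.15 and 9.14 in controls. The 2 arrays with high meningeal values were the highest here too. In each of them 5 of 8 endothelial genes exceeded all controls, beside 22.9% (*Tbr2* cKO) and 25.7% (*Tbr1/2* dKO) of all genes.

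*Cdh5* encodes VE-cadherin, the adhesion molecule of endothelial junctions. It had 9.51, 9.47, 9.75 and 9.68 in *Tbr1* KO, 10.28 and 9.81 in *Tbr2* cKO and 10.16, 9.94 and 9.81 in *Tbr1/2* dKO arrays, against 9.73, 9.74 and 9.68 in controls. All *Tbr2* cKO and all *Tbr1/2* dKO arrays were above all controls, which no other endothelial gene showed in either mutant. The differences were 0.33 (SE 0.14, adjusted p = 0.466) in *Tbr2* cKO and 0.25 (SE 0.13, adjusted p = 0.471) in *Tbr1/2* dKO. For *Tbr1/2* dKO the exact permutation p was 0.1, the smallest that 3 against 3 arrays can give and fixed by the lack of overlap. The difference without the 2 arrays that stood apart was 0.09 for *Tbr2* cKO and 0.16 for *Tbr1/2* dKO. With the meningeal mean of each array as a covariate it was 0.16 for *Tbr2* cKO and 0.12 for *Tbr1/2* dKO.

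*Slc2a1*, the glucose transporter of the blood-brain barrier, had 11.97, 12.06, 12.09 and 12.19 in *Tbr1* KO, 12.20 and 12.18 in *Tbr2* cKO and 12.17, 12.12 and 12.20 in *Tbr1/2* dKO arrays, against 12.16, 12.0005 and 12.19 in controls. *Cldn5*, a tight junction protein of brain endothelium, had 8.95, 8.71, 8.40 and 8.42 in *Tbr1* KO, 8.97 and 8.65 in *Tbr2* cKO and 9.36, 8.45 and 8.97 in *Tbr1/2* dKO arrays, against 8.87, 9.08 and 8.71 in controls. *Slco1c1*, a thyroid hormone transporter of the barrier, had 7.65, 7.35, 7.10 and 7.05 in *Tbr1* KO, 7.33 and 7.32 in *Tbr2* cKO and 7.58, 6.72 and 7.54 in *Tbr1/2* dKO arrays, against 7.42, 7.59 and 7.38 in controls. The groups overlapped in all these genes except that both *Tbr2* cKO arrays of *Slco1c1* were below the controls. *Pecam1*, *Esam*, *Ramp2* and *Emcn* had differences from control between -0.11 and 0.27 over the 3 mutants.

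Pericyte genes overlapped the controls in every mutant. *Rgs5*, a regulator of G-protein signalling typical of brain pericytes, had 9.39, 9.19, 9.13 and 9.01 in *Tbr1* KO, 9.37 and 9.48 in *Tbr2* cKO and 9.59, 8.62 and 9.34 in *Tbr1/2* dKO arrays, against 9.20, 9.41 and 9.58 in controls. A dimmer *Rgs5* probeset, kept out of the main fit, had 8.33, 7.50, 7.62 and 7.72 in *Tbr1* KO arrays. It had 8.11 and 8.08 in *Tbr2* cKO and 8.18, 7.56 and 8.61 in *Tbr1/2* dKO arrays, against 8.23, 8.30 and 8.09 in controls. *Pdgfrb*, the receptor through which endothelium recruits pericytes, had 8.98, 8.82, 9.06 and 9.01 in *Tbr1* KO, 9.50 and 9.04 in *Tbr2* cKO and 9.38, 8.90 and 9.14 in *Tbr1/2* dKO arrays, against 8.98, 9.07 and 8.97 in controls. *Anpep*, an aminopeptidase on pericytes that meningeal fibroblasts also carry, had 7.05, 7.06, 7.04 and 7.03 in *Tbr1* KO, 7.77 and 7.03 in *Tbr2* cKO and 7.82, 6.91 and 7.09 in *Tbr1/2* dKO arrays, against 7.15, 7.20 and 6.99 in controls. *Pdgfrb* and *Anpep* were highest in the 2 arrays with high meningeal genes. *Rgs5* was not high in *Tbr2* cKO replicate 1, and *Cspg4* and *Abcc9* had differences from control between -0.08 and 0.03. Within *Tbr1/2* dKO the arrays diverged, with 4 of 5 pericyte genes above all controls in replicate 1 (beside 25.7% of all genes) and 4 of 5 below all controls in replicate 2 (beside 24.8%).

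The mean of the microglial genes was near the control values in all arrays. It lay between 7.52 and 7.59 in *Tbr1* KO, at 7.64 in both *Tbr2* cKO arrays and between 7.56 and 7.67 in *Tbr1/2* dKO arrays, against 7.57 to 7.70 in controls. In *Tbr2* cKO replicate 1, 1 of 9 exceeded all controls, and in *Tbr1/2* dKO replicate 1 it was 4 of 9, beside 22.9% and 25.7% of all genes in these arrays. *Cx3cr1*, the fractalkine receptor, had 8.72, 8.74, 8.47 and 8.63 in *Tbr1* KO, 8.94 and 8.82 in *Tbr2* cKO and 8.53, 8.98 and 8.69 in *Tbr1/2* dKO arrays, against 8.57, 9.07 and 8.68 in controls. *C1qb*, a chain of complement C1q, had 8.30, 8.36, 8.68 and 8.65 in *Tbr1* KO, 8.68 and 8.51 in *Tbr2* cKO and 8.69, 8.34 and 8.77 in *Tbr1/2* dKO arrays, against 8.55, 8.56 and 8.71 in controls. *C1qa*, another C1q chain from the same gene cluster, had 7.31, 7.02, 7.07 and 7.00 in *Tbr1* KO, 7.22 and 7.12 in *Tbr2* cKO and 7.34, 6.80 and 7.08 in *Tbr1/2* dKO arrays, against 6.91, 7.34 and 7.39 in controls. The groups overlapped in these 3 genes. In *Tbr1* KO 8 of 9 microglial genes had a mean below control, with a median difference of -0.11. So did 5 of 5 pericyte, 7 of 8 endothelial and 8 of 12 meningeal genes and 7798 of all 14860 genes. The arrays of *Csf1r* (the survival receptor of microglia) and *Ptprc* (CD45) in *Tbr1* KO were all below the controls. *Ptprc* differed by only -0.08 (SE 0.04, adjusted p = 0.859) and *Csf1r* by -0.14 (SE 0.09, adjusted p = 0.913).

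The 3 erythroid markers moved little. *Alas2*, the first enzyme of haem synthesis in red cells, had 8.44, 8.34, 8.66 and 8.41 in *Tbr1* KO, 8.28 and 8.18 in *Tbr2* cKO and 8.81, 8.30 and 8.36 in *Tbr1/2* dKO arrays, against 8.37, 8.44 and 8.41 in controls. *Slc4a1*, the anion exchanger of the red cell membrane, had 7.87, 7.83, 7.78 and 7.82 in *Tbr1* KO, 7.88 and 7.90 in *Tbr2* cKO and 8.12, 8.17 and 7.77 in *Tbr1/2* dKO arrays, against 7.77, 7.96 and 7.89 in controls. *Hemgn*, a nuclear protein of blood precursors, had 7.00 and 7.09 in *Tbr2* cKO arrays, against 6.82, 6.91 and 6.87 in controls. Both *Tbr2* cKO arrays were above the controls for *Hemgn* and below them for *Alas2*, so the erythroid genes did not run together in this mutant. In *Tbr1/2* dKO replicate 1 all 3 were above all controls, beside 25.7% of all genes. A further list of 11 measured erythroid genes had means of 7.99 and 8.03 in *Tbr2* cKO arrays, against 7.87, 7.81 and 7.93 in controls. Of these 11, 5 were above all controls in both *Tbr2* cKO arrays (beside 10.9% of all genes) and 0 below (beside 18.0%). In *Tbr1/2* dKO replicate 2 it was 8 of 11 above, beside 37.1%. None was called, and the adult globin genes of that list were not measured.

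No marker was called in any mutant. At an adjusted p under 0.05 (limma over all genes) 0 of 47 passed in each of *Tbr1* KO, *Tbr2* cKO and *Tbr1/2* dKO, beside 0.619%, 0.653% and 3.11% of all genes. At an unadjusted p under 0.05, 1 of 47 passed in *Tbr1* KO (*Dcn*, higher), beside 6.51% of all genes. In *Tbr2* cKO 8 of 47 passed, all higher, beside 10.0% of all genes: *Ttr*, *Folr1*, *Clic6*, *Sostdc1*, *Trpm3* and *F5* of the choroid plexus, with *Cdh5* and *Hemgn*. In *Tbr1/2* dKO none of the 47 passed, beside 12.3% of all genes. Without the 2 arrays that stood apart, the counts at an unadjusted p under 0.05 were 3 in *Tbr1* KO (*Dcn* and *Lum* higher, *Trpm3* lower, beside 5.93% of all genes), 2 in *Tbr2* cKO (*Aif1* and *Hemgn*, higher, beside 5.28%) and 1 in *Tbr1/2* dKO (*Trpm3*, lower, beside 12.5%), and none was called. *Tbr2* cKO is then a single array that is assumed to vary like the other genotypes.

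The test of any difference among the 4 genotypes called none of the 47 either, beside 2.27% of all genes. At an unadjusted p under 0.05 it passed 3, *Cdh5*, *Folr1* and *Trpm3*, beside 12.7% of all genes. Between mutants no marker was called: *Tbr2* cKO against *Tbr1* KO called 0.585% of all genes, *Tbr1/2* dKO against *Tbr1* KO 1.24% and *Tbr1/2* dKO against *Tbr2* cKO 0.108%. At an unadjusted p under 0.05, 8 markers were higher in *Tbr2* cKO than in *Tbr1* KO (beside 12.5% of all genes), and these were *Cdh5*, *Esam* and 6 choroid plexus genes. *Foxc1*, *Cdh5*, *Esam* and *Slc4a1* were higher in *Tbr1/2* dKO than in *Tbr1* KO (4 of 47, beside 10.9%). With the replicate number as a block only *Cdh5* passed in that comparison (1 of 47, beside 10.6% of all genes), and none was called. *Ttr*, *Sostdc1*, *Trpm3* and *F5* were lower in *Tbr1/2* dKO than in *Tbr2* cKO (4 of 47, beside 6.22%). The comparisons share arrays and are not independent.

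Few markers had mutant and control arrays that did not overlap. In *Tbr1* KO 2 markers lay above all controls (*Dcn* and *Lum*, beside 3.47% of all genes) and 2 below (*Csf1r* and *Ptprc*, beside 4.02%). In *Tbr2* cKO 6 lay above (*Cdh5*, *C1qc*, *Hemgn*, *Ttr*, *Otx2* and *F5*, beside 10.9%) and 3 below (*Slco1c1*, *Trem2* and *Alas2*, beside 18.0%). In *Tbr1/2* dKO 2 lay above (*Lum* and *Cdh5*, beside 8.58%) and 0 below (beside 8.53%). These shares are close to or under those of all genes.

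By class, the median log2 difference from control in *Tbr2* cKO was 0.67 for the choroid plexus and 0.38 for the meninges, beside -0.01 for all genes. Without the 2 arrays, which were picked for high values of these markers, these were 0.06 and -0.01. In *Tbr1/2* dKO the meninges had 0.34 and the choroid plexus 0.10, beside 0.01 for all genes, and without the 2 arrays 0.05 and 0.01. In *Tbr1* KO the class medians ran from -0.11 in microglia to 0.06 in the choroid plexus. The endothelial, pericyte, microglial and erythroid medians were between -0.04 and 0.08 in *Tbr2* cKO and *Tbr1/2* dKO.

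Arrays of the same genotype differed widely in meningeal and choroid plexus genes. *Tbr2* cKO replicate 1 minus replicate 2 had a median of 1.25 over the choroid plexus genes and 0.93 over the meningeal genes, beside -0.02 over all genes. Of the 20 genes with the largest such difference among all 14860, 8 were markers: *Ttr*, *Sulf1*, *Clic6*, *Calml4* and *Otx2* of the choroid plexus and *Lum*, *Dcn* and *Ogn* of the meninges. *Tbr1/2* dKO replicate 1 minus the mean of replicates 2 and 3 had a median of 0.83 over the meningeal genes and 0.11 over the choroid plexus genes, and 4 markers were among its largest 20, *Dcn*, *Ogn*, *Lum* and *Aldh1a2*. The SD within genotypes had a median of 0.37 for the meninges and 0.36 for the choroid plexus, beside 0.11 for all genes. It was above the 90th percentile of all genes for 9 of 12 meningeal and 8 of 10 choroid plexus genes, for 3 of 8 endothelial and 2 of 5 pericyte genes, and for 0 of 9 microglial and 0 of 3 erythroid genes. *Ttr* ranked 4 and *Dcn* 5 among all genes by this SD (1.48 and 1.20). The 2 arrays that stood apart are part of this spread.

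**Figure D4:**
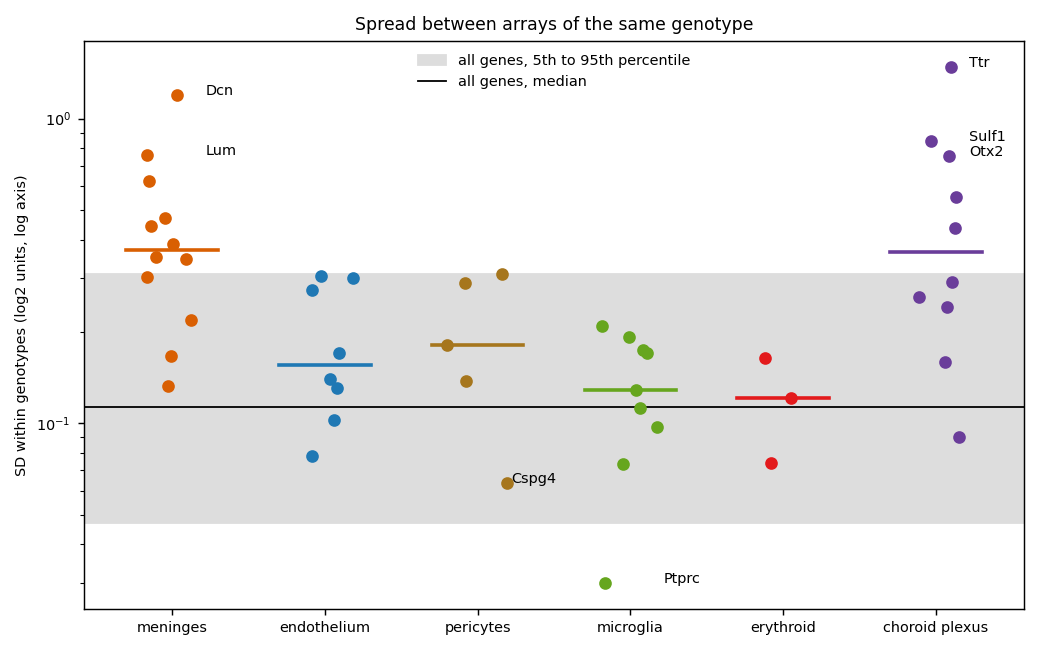
SD of each marker between arrays of the same genotype, in log2 units on a log axis, by class, with the class median as a bar; the grey band is the 5th to 95th percentile of all genes. Meningeal and choroid plexus medians (0.37 and 0.36) lie above the band, those of the other classes within it.

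Further markers of the same tissues, 75 measured genes in 6 lists, were also mostly not called. In *Tbr1/2* dKO 1 of the 75 was called, beside 3.11% of all genes. This was *Crabp2*, a retinoic acid binding protein listed with the meninges, which rose by 1.52 (SE 0.33, adjusted p = 0.031, limma). It had 8.77, 10.15 and 9.37 in *Tbr1/2* dKO, 8.03, 7.87, 8.54 and 8.79 in *Tbr1* KO and 9.29 and 8.81 in *Tbr2* cKO arrays, against 7.77, 7.79 and 8.17 in controls. Its highest array was *Tbr1/2* dKO replicate 2. The meningeal mean there was 7.50, against 8.56 and 7.69 in replicates 1 and 3, with *Dcn* at 7.56, against 11.31 and 9.92. The median meningeal difference from the control mean was 0.11 there, against 0.95 and 0.003. For the further meningeal list, which includes *Crabp2*, the mean was 7.75, against 8.19 and 7.63. The adjusted p of *Crabp2* ran from 0.0101 to 0.122 over the alternatives. The call was lost in 7 of 20 of them, which include the replicate block (adjusted p = 0.0565) and the removal of any 1 control. Of 13 cortical hem genes none was called. Of 8 subpallium genes 1 was called in *Tbr1/2* dKO, beside 3.11% of all genes. It was *Lhx6*, a homeobox gene of interneurons from the medial ganglionic eminence, and it was lower. *Lhx6* had 10.33, 10.10, 9.90 and 9.88 in *Tbr1* KO and 9.87 and 10.00 in *Tbr2* cKO arrays, the latter both below all controls. In *Tbr1/2* dKO it had 9.73, 9.39 and 9.88, against 10.45, 10.32 and 10.23 in controls (difference -0.67, SE 0.14, adjusted p = 0.0269, limma). Its adjusted p ran from 0.011 to 0.116 and the call was lost in 8 of 21 alternatives, which include the replicate block (0.0565), the removal of any 1 control and the fit without the 2 arrays that stood apart (0.0831).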

How the data were processed

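RNA of single embryonic mouse neocortices was hybridised to exon arrays (Affymetrix Mouse Exon 1.0 ST) from 4 *Tbr1* KO, 2 *Tbr2* cKO, 3 *Tbr1/2* dKO and 3 control embryos. The authors deposited log2 values made from the scans by RMA with the package oligo, and the sources used here give no versions, settings or annotation release. RMA makes the array distributions alike, so a value is relative to the rest of its array. Dim probes stay compressed toward the floor, which understates their fold changes. The few arrays set the precision.

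Of 23332 probesets, 14996 had 1 gene symbol and were used, 1019 had several and 7317 none. For the 135 genes with several probesets the brightest on average was kept, leaving 14860 genes. The 4 genotype means were fitted to 12 arrays with limma 3.58.1 in R 4.3.3 (functions lmFit and eBayes; residual degrees of freedom 8), with p-values adjusted by Benjamini-Hochberg over all genes. A gene was called at an adjusted p under 0.05, and an unadjusted p under 0.05 is given as well. Replicate numbers were checked as pairs from the data alone (closing section). The fit was tested on simulated data with values drawn independently for each gene and array. That test does not bear on arrays in which many markers shift together. Exact permutation tests were two-sided (scipy 1.17.1, Python 3.11.15). They were run for *Dcn*, *Folr1* and *Cdh5*, the markers with the lowest adjusted p in each mutant. As these genes stand out in the same values, the tests add no separate support.

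Values in every array are given, for each class, for any called marker, the 2 markers with the highest mean and the 2 with the largest SD within genotypes. Others are named as the text says. The markers and lists were chosen with earlier results of these data known. Alternatives were other probeset summaries, a filter on dim genes, 2 further scalings, another variance prior, array weights, the compared groups alone, a replicate block, the meningeal mean as a covariate, the threshold, and leaving out arrays. The alternatives for *Crabp2* and *Lhx6*, the unadjusted counts without 2 arrays, and the block and the removal of 1 array between mutants were added after the data were seen. Promoter sequences came from RefSeq (GRCm38.p6).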

Additional observations from a re-analysis of the deposited data

Results flagged for a closer look

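In 53 sets of values, each a marker or a class mean within the 4 *Tbr1* KO arrays, the distance of the most extreme array from its nearest neighbour was set against the whole range. In 2 of them it passed Dixon's critical value for 4 samples, which chance passes in about 1 in 20. *Foxc1* in *Tbr1* KO had a ratio of 0.887, with 8.35, 8.60, 8.36 and 8.38, against 8.44 to 8.67 in controls. *Ttr* in *Tbr1* KO had a ratio of 0.891, with 8.45 in replicate 4 and 6.78 to 6.96 in the other 3, against 6.78 to 7.01 in controls. Groups of 2 and 3 arrays were not examined in this way.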

How the results depend on the processing

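No marker was called in any mutant under any alternative that kept the adjusted threshold, other than without *Tbr2* cKO replicate 2. There 5 choroid plexus genes were called in *Tbr2* cKO, *Ttr* (5.64), *Clic6* (2.02), *Calml4* (1.37), *Folr1* (1.09) and *Sostdc1* (0.96), from a single array assumed to vary like the other genotypes, beside 0.296% of all genes. Between mutants the same setting also called markers in *Tbr2* cKO against *Tbr1* KO and in *Tbr1/2* dKO against *Tbr2* cKO. These calls rest on the same single *Tbr2* cKO array. Leaving out each array in turn thus gave 0 to 5 markers in *Tbr2* cKO, and 0 to 5 outside the meninges. At an unadjusted p under 0.05 the counts were 1 in *Tbr1* KO and 8 in *Tbr2* cKO, all 8 outside the meninges. *Clic6* in *Tbr2* cKO was -0.02 without *Tbr2* cKO replicate 1, and without *Tbr2* cKO replicate 1 and *Tbr1/2* dKO replicate 1 together it was -0.025. *Trpm3* in *Tbr2* cKO against *Tbr1* KO passed the threshold with array weights (adjusted p = 0.0371) and without *Tbr2* cKO replicate 2 (0.0214). *Dcn* in *Tbr1* KO had adjusted p from 0.0685, with *Tbr1* KO and control arrays fitted alone, to 0.9996, without *Tbr1* KO replicate 3. With only genes above the median mean, 2 meningeal genes remain and their medians move to 0.998 (*Tbr1* KO), 1.08 (*Tbr2* cKO) and 0.936 (*Tbr1/2* dKO), since *Dcn* is 1 of these 2.

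Of 15 same-numbered pairs of arrays from different genotypes, 6 had a correlation of deviations over 0.1 (from -0.12 to 0.38), against 6 of 38 differently numbered pairs. All 3 same-numbered pairs of *Tbr1/2* dKO and *Tbr1* KO were over 0.1 (0.18 to 0.38), so the block is given with that comparison. In no comparison with controls were all pairs over 0.1, and the labels name no shared litter or day, so no pairing was taken there. With the replicate block 0 markers were called in each mutant, and the calls of *Crabp2* and *Lhx6* in *Tbr1/2* dKO were lost (both adjusted p = 0.0565).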
